A study of Homo sapiens with 2 samples.

Results

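The MAGE-A and MAGE-C cancer-testis antigens examined in NCI-H716 cells were 10 genes of the X chromosome, namely MAGEA1, MAGEA2, MAGEA2B, MAGEA3, MAGEA4, MAGEA6, MAGEA10, MAGEA12, MAGEC1 and MAGEC2. They were found by symbol among the 19989 genes of the expression table. A row was present for 7 of the 10, and 5 of these reached a mean of 1 CPM over the libraries, the unit in which each gene's estimated count is scaled to the total of its library. NCI-H716 is a human colorectal adenocarcinoma line labelled as cecal, and is used as a model of the intestinal L-cell. Cells that grow in suspension were plated on Matrigel, then kept for 48 h in DMEM with serum and antibiotics at low (5.5 mM) or high (25 mM) glucose, before sequencing of polyadenylated RNA. The groups shared everything but the glucose concentration as far as the labels say, and each had 1 library of this single line. There were therefore no replicates, no test of glucose was possible, and every 95% interval below covers counting error only. The genes were chosen by family and by CPM in these same libraries, so levels and ratios are given as a description.

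MAGE genes of this class (type I) are normally transcribed in germ cells of the testis and are silent in most other adult tissues, where their promoters carry DNA methylation. Many tumours lose that methylation and transcribe them, and peptides of the proteins are then shown on HLA class I molecules to T-cells. The proteins share a MAGE homology domain through which they bind RING ubiquitin ligases. MAGE-A3 and MAGE-A6 bind the ligase TRIM28 and direct it to the catalytic subunit of AMPK, the energy-sensing kinase.

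The total estimated count was 21757392 for low and 19456886 for high glucose, so 1 count was worth 0.0460 and 0.0514 CPM. L-cell and epithelial markers were present, with GCG, which encodes proglucagon, at 1954 CPM at low and 1808 CPM at high glucose. EPCAM was low, at 3.37 and 3.50 CPM, beside KRT8 at 270 and 291 CPM. None of the 7 germ cell markers listed (DAZL, DDX4, SYCP1, SYCP3, TNP1, PRM1 and PRM2) had a row. All 3 melanocyte markers had a row. They summed to 1.60 CPM at low and 1.81 CPM at high glucose, with MLANA at 4 and 0 estimated counts.

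MAGEA3 and MAGEA6 carried most of the CPM of the group. MAGEA3 (ENSG00000221867.8, chrX:152698752-152702347 of GRCh38, plus strand, 3 exons in its longest transcript) was at 135 CPM at low (interval 131 to 140, Wilson, here and below) and 135 CPM at high glucose (130 to 140). The libraries overlapped fully for this gene, and its log2 ratio, high over low glucose, was -0.01 (exact binomial interval, here and below, -0.08 to 0.07). MAGEA6 (ENSG00000197172.10, chrX:152766136-152769747, minus strand) was at 100.2 CPM at low (96.1 to 104) and 107 CPM at high glucose (103 to 112). These intervals overlapped slightly, and the log2 ratio was 0.10 (0.01 to 0.18). In a bulk sample, fewer cells with a transcript and less of it per cell cannot be told apart.

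The coding sequences of MAGEA3 and MAGEA6 are both 942 bases without the stop codon and differ at 18 positions (98.1% identity). The 60 bases with the most differences, coding positions 573 to 632, are shown because reads that cover such bases can be assigned to 1 gene. Capitals mark the 4 differences.
MAGEA3: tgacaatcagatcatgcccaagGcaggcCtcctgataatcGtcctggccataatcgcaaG
MAGEA6: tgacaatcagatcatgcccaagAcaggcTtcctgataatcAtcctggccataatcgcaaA
The reads came in pairs and were aligned over 75 bases each. Either read of a pair can place it, so shares of single stretches can overstate what had to be divided. Of the distinct 75-base stretches in annotated MAGEA3 transcripts, 57.9% occur in no other gene, and 42.0% also occur in MAGEA6. For MAGEA6 the shares are 60.2% and 39.8%. The estimated counts are therefore in part divided between these genes by RSEM, and the intervals leave that division out. Summed, MAGEA3 plus MAGEA6 stood at 236 CPM at low (229 to 242) and 242 CPM at high glucose (235 to 249). The log2 ratio of the sum was 0.04 (-0.02 to 0.10). MAGEA6 made up 42.5% of the sum in low glucose (Clopper-Pearson interval 41.2 to 43.9%) and 44.3% in high glucose (42.8 to 45.7%).

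**Figure D1:**
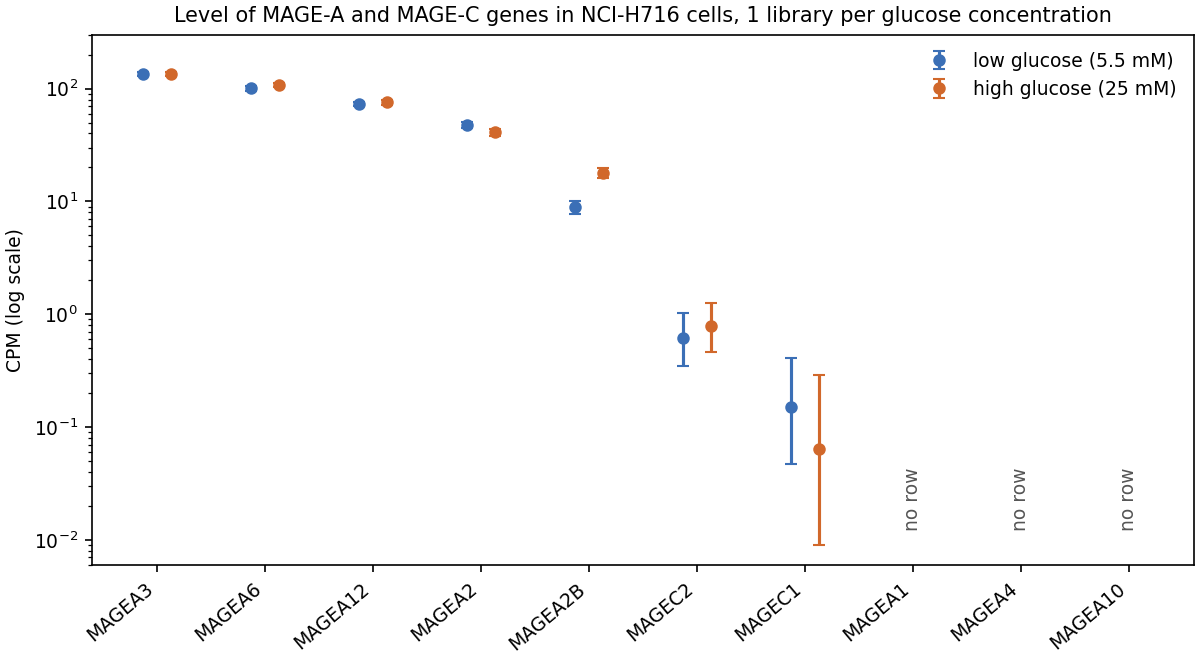
CPM (log scale) of the 10 genes in the low glucose library (blue) and the high glucose library (orange), with 95% Wilson intervals from counts as bars and genes without a row marked as such. From MAGEA3 at 135 CPM the levels step down to MAGEA2B, and MAGEC2 and MAGEC1 lie below 1 CPM. MAGEA2B has the widest gap between the libraries among the genes above 1 CPM.

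MAGEA2 and MAGEA2B differed between the libraries in opposite directions. These genes encode the same coding sequence, and MAGE-A2 is another partner of TRIM28. MAGEA2B (ENSG00000183305.13, chrX:152714586-152718607, plus strand) was at 8.84 CPM at low (7.66 to 10.2) and 17.8 CPM at high glucose (16.0 to 19.8). It was 2.02-fold higher in the high glucose library, with a log2 ratio of 1.01 (0.75 to 1.27) and no overlap of the intervals. MAGEA2 (ENSG00000268606.5, chrX:152749863-152753884, minus strand) was at 47.8 CPM at low (45.0 to 50.8) and 41.0 CPM at high glucose (38.2 to 43.9). Its level was the lower one at high glucose, with a log2 ratio of -0.22 (-0.36 to -0.09), again without overlap. High minus low glucose, MAGEA2B differed by 8.99 CPM and MAGEA2 by -6.84 CPM.

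The sum of the copies did not show this gap. MAGEA2 plus MAGEA2B was at 56.6 CPM at low (53.5 to 59.9) and 58.8 CPM at high glucose (55.5 to 62.3), with a log2 ratio of 0.05 (-0.06 to 0.17). What differed was the share given to MAGEA2B, which was 15.6% of the sum in low glucose (13.6 to 17.8%) and 30.3% in high glucose (27.7 to 33.1%). The coding sequences of MAGEA2 and MAGEA2B have 0 differences over 942 bases. Only 6.79% of the 75-base stretches of MAGEA2 transcripts and 14.8% of those of MAGEA2B occur in no other gene, and all the others occur in the copy. The estimated counts of MAGEA2B were not whole in either library, at 191.7 and 347.1, nor were those of MAGEA2, at 1038.4 and 798.2. The part that the division of shared reads has in the values of MAGEA2 and MAGEA2B was not tested.

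**Figure D2:**
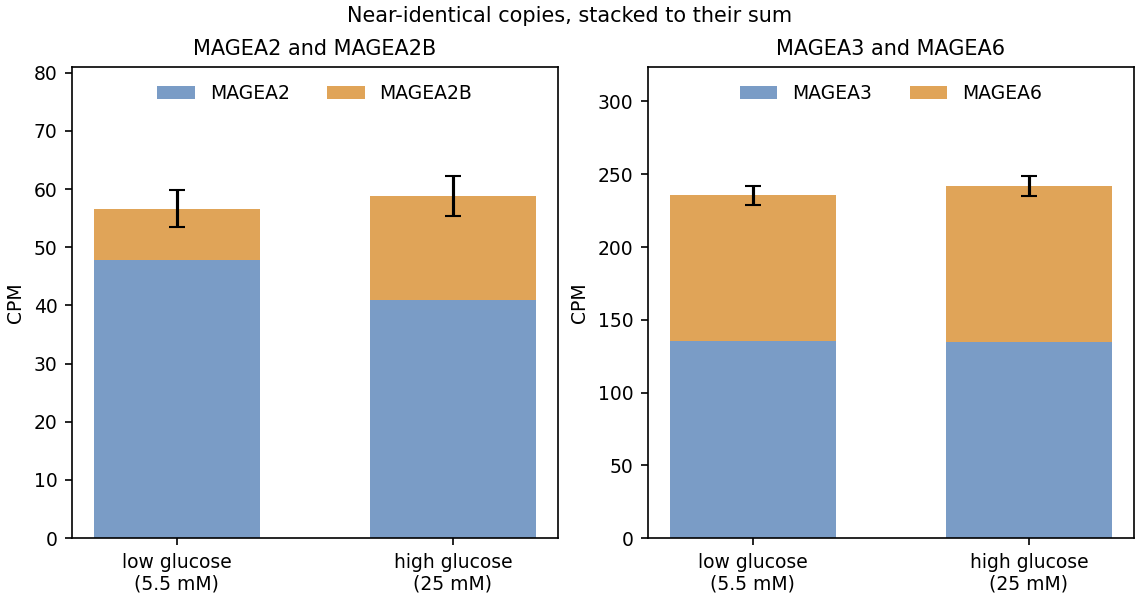
CPM of MAGEA2 with MAGEA2B (left) and of MAGEA3 with MAGEA6 (right), stacked to their sum for each library, with the 95% Wilson interval of the sum as a bar. The MAGEA2B part is 8.84 CPM at low and 17.8 CPM at high glucose, in columns of 56.6 and 58.8 CPM.

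**Figure D3:**
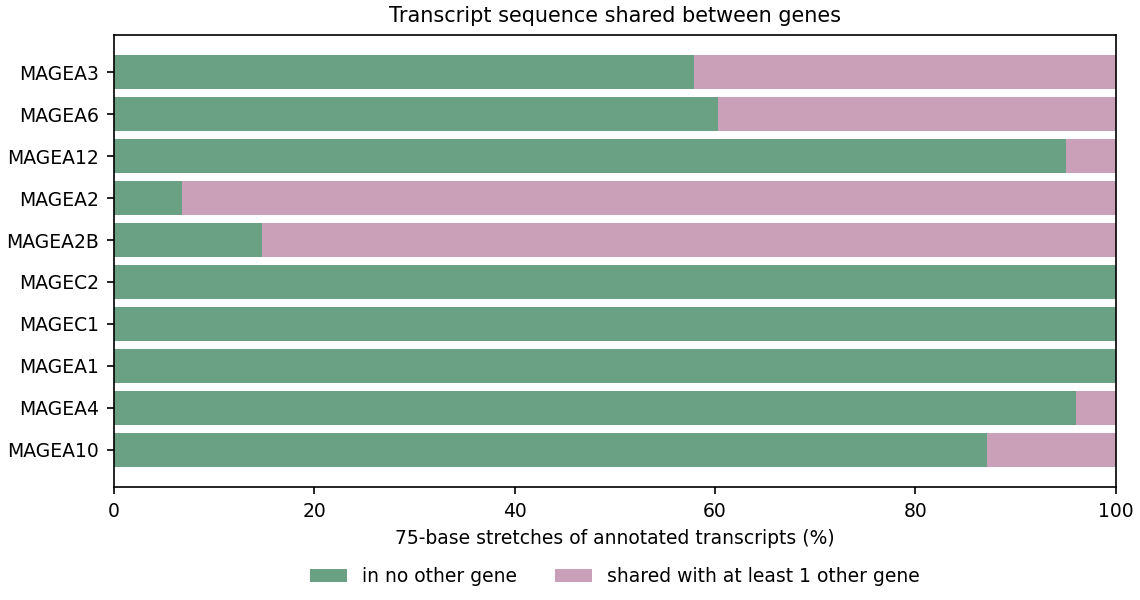
Share (%) of the distinct 75-base stretches of each gene's annotated transcripts that occur in no other gene (green) or in at least 1 other (pink). MAGEA2 and MAGEA2B are nearly all shared, at 6.79% and 14.8% of their own, against 95.1% for MAGEA12 and 100.0% for MAGEC1 and MAGEC2.

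The promoters of the copies are alike as well. In the RefSeq windows of GRCh38.p14, which run from 250 bases before a start to 50 after it, the window of MAGEA2B equals a window of MAGEA2 base for base, and that of MAGEA3 equals that of MAGEA6. They are printed because CpG methylation in this region is what is known to silence these genes. Capitals mark each CG, the only motif marked, which reads the same on both strands. The windows are chrX:152714378-152714677 (plus) for MAGEA2B, chrX:152753793-152754092 (minus) for MAGEA2, chrX:152698544-152698843 (plus) for MAGEA3 and chrX:152769640-152769939 (minus) for MAGEA6.
MAGEA2 and MAGEA2B: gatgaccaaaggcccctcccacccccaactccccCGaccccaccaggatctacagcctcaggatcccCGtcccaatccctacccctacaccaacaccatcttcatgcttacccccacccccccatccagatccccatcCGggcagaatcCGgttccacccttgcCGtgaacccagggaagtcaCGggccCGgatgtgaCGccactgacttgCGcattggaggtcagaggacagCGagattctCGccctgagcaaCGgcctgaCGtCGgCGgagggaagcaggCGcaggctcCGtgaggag
MAGEA3 and MAGEA6: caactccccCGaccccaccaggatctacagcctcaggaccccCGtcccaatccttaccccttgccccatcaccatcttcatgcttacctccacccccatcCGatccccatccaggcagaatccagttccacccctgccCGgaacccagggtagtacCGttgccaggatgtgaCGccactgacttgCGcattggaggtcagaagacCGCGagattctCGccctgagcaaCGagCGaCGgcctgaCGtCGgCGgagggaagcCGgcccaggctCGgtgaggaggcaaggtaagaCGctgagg
The first holds 17 and the second 19 CG, against a median of 14 over all 35116 windows (quartiles 4 and 28), of which 96.0% hold at least 1. MAGEA12 has 9 and 15 CG in its windows and the other window of MAGEA2 has 13. MAGEC1 and MAGEC2 have 14 and 10, and the 5 windows of MAGEA4 have 10 to 15. A count of CG in the reference says nothing of its methylation in these cells, which was not measured. Windows were matched for 8 of the 10 genes, and MAGEA1 and MAGEA10 have no entry.

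MAGEA12 was the member with the most sequence of its own among those above 1 CPM, with 95.1% of its 75-base stretches in no other gene. MAGEA12 (ENSG00000213401.9, chrX:152733779-152737669, plus strand) was at 72.9 CPM at low (69.4 to 76.6) and 75.7 CPM at high glucose (71.9 to 79.6). The intervals overlapped, and the log2 ratio was 0.05 (-0.05 to 0.16). Its coding sequence is 93.0% identical to that of MAGEA2 and 92.1% identical to that of MAGEA3. It overlaps the pseudogene CSAG4 on the same strand, which had a mean of 0.453 CPM.

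The MAGE-C genes were near the limit of detection. MAGEC2 (ENSG00000046774.9, chrX:142202345-142205290, minus strand), which encodes another activator of TRIM28, had 13 and 15 estimated counts, or 0.611 CPM at low glucose (0.350 to 1.02) and 0.782 CPM at high glucose (0.467 to 1.27). With limits of -0.81 and 1.55 on its log2 ratio, a difference was not detectable at this depth. MAGEC1 (ENSG00000155495.8, chrX:141903894-141909388, plus strand), whose coding sequence of 3426 bases is the longest of the group, had 3 estimated counts at low and 1 at high glucose. With the prior that the deposited CPM contain, that is 0.150 CPM (0.0470 to 0.406) and 0.0634 CPM (0.00906 to 0.291). Both counts are at or under the 3 that a count of 0 allows, which are worth 0.138 CPM at low and 0.154 CPM at high glucose, and no ratio is given. All stretches of both genes are their own, and their counts were whole.

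MAGEA1, the founding member of the family, MAGEA4, a target of T-cell therapies, and MAGEA10 had no row under these symbols in the table used here and were counted as not detected. A missing row is not a measured 0, and the table does not show why a row is missing. The authors removed genes with a total estimated count under 1 over the libraries, and the lowest total in the table is 1.01. These genes are mostly separable from the others by sequence. MAGEA1 has 100.0%, MAGEA4 96.0% and MAGEA10 87.1% of its 75-base stretches in no other gene.

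Per kb of the longest annotated transcript, the order of levels in low glucose was MAGEA3 (76.8 CPM per kb), MAGEA6 (56.9), MAGEA12 (41.4), MAGEA2 (23.6), MAGEA2B (4.54), MAGEC2 (0.307) and MAGEC1 (0.0352). The order in high glucose was the same, at 76.5, 60.8, 43.0, 20.2, 9.16, 0.393 and 0.0149 CPM per kb. Neighbours in this order had counting intervals that did not overlap in either library. For MAGEA3 and MAGEA6 in high glucose, the facing limits were 73.6 and 63.4 CPM per kb. These intervals leave out the division of reads between copies.

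Over the 7 genes with a row, the sum was 366 CPM at low (358 to 374) and 377 CPM at high glucose (369 to 386), with a log2 ratio of 0.04 (-0.00 to 0.09). Whether this interval excluded 0 depended on the scaling, since its lower limit was 0.0022 with library totals alone and 0.0019 with median-of-ratios size factors. Of the 5 genes that reached a mean of 1 CPM, MAGEA2B alone had a log2 ratio of 1 or more in either direction, where 0.835% of the 13052 genes at that level did, 0.215% higher and 0.621% lower in high glucose. The genes on either side of this limit on the mean were MAGEA2B, well above it at 13.3 CPM, and MAGEC2, below it at 0.696 CPM. The counting interval excluded 0 for 3 of the 5 genes, with MAGEA2B and MAGEA6 higher and MAGEA2 lower in high glucose. Among all genes it did so for 31.7%, with 15.8% higher and 16% lower. Among those with a mean of at least 10 CPM, as these 5 had, it did so for 38.4%, since counting intervals narrow as counts rise. A log2 ratio above 0 was found for 3 of the 5 genes and for 48.6% of all genes. With the copies summed, which leaves MAGEA2 plus MAGEA2B, MAGEA3 plus MAGEA6 and MAGEA12, the interval excluded 0 for 0 of the 3. Their log2 ratios were 0.05, 0.04 and 0.05, where the median over all genes was -0.01 and the 5th to 95th percentiles ran from -0.44 to 0.30.

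**Figure D4:**
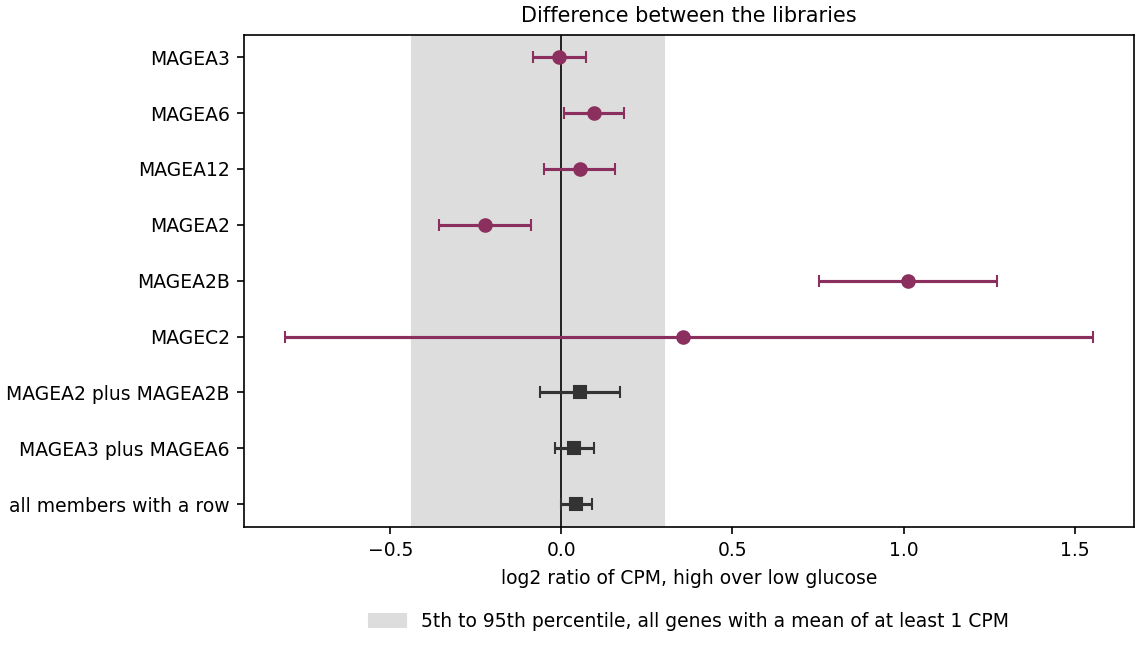
Log2 ratio of CPM, high over low glucose, for 6 genes (circles) and 3 sums (squares), with 95% exact binomial intervals as bars and the 5th to 95th percentiles of the 13052 genes that reached a mean of 1 CPM in grey. MAGEA2B lies outside the grey band at 1.01, and the sum of MAGEA2 and MAGEA2B lies inside it at 0.05.

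Of the 8 MAGE-A genes among the 10, those with a row lay apart from those without by position, which was described and not tested. The 5 with a row lie together in 70996 bases, chrX:152698752-152769747, and the 3 without a row lie outside, MAGEA1 410 kb to one side and MAGEA10 and MAGEA4 560 and 774 kb to the other. In order along the chromosome the region holds MAGEA3, CSAG2, MAGEA2B, CSAG1, MAGEA12, MAGEA2, CSAG3 and MAGEA6. MAGEA3, CSAG2 and MAGEA2B on the left have their copies MAGEA6, CSAG3 and MAGEA2 on the right in inverted order and on the opposite strand. Its limits were drawn around these 5 genes, and the 3 CSAG genes between them also reached a mean of 1 CPM. Of 50 protein-coding genes within 1500 kb to either side, 24 did so. Matching was by symbol, so a gene under an older name is missed. The 50 include genes without a row, among them MAGEA1, MAGEA4 and MAGEA10. In the table, where every gene has a row, 13052 of 19989 did so, and the shares are not comparable. Since the members' values set the limits of the region, no test was made of these counts. The protein-coding genes nearest the region were GABRQ, a GABA receptor subunit, at 0.657 and 0.628 CPM, and CETN2, which encodes a centrin, at 41.0 and 41.1 CPM.

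**Figure D5:**
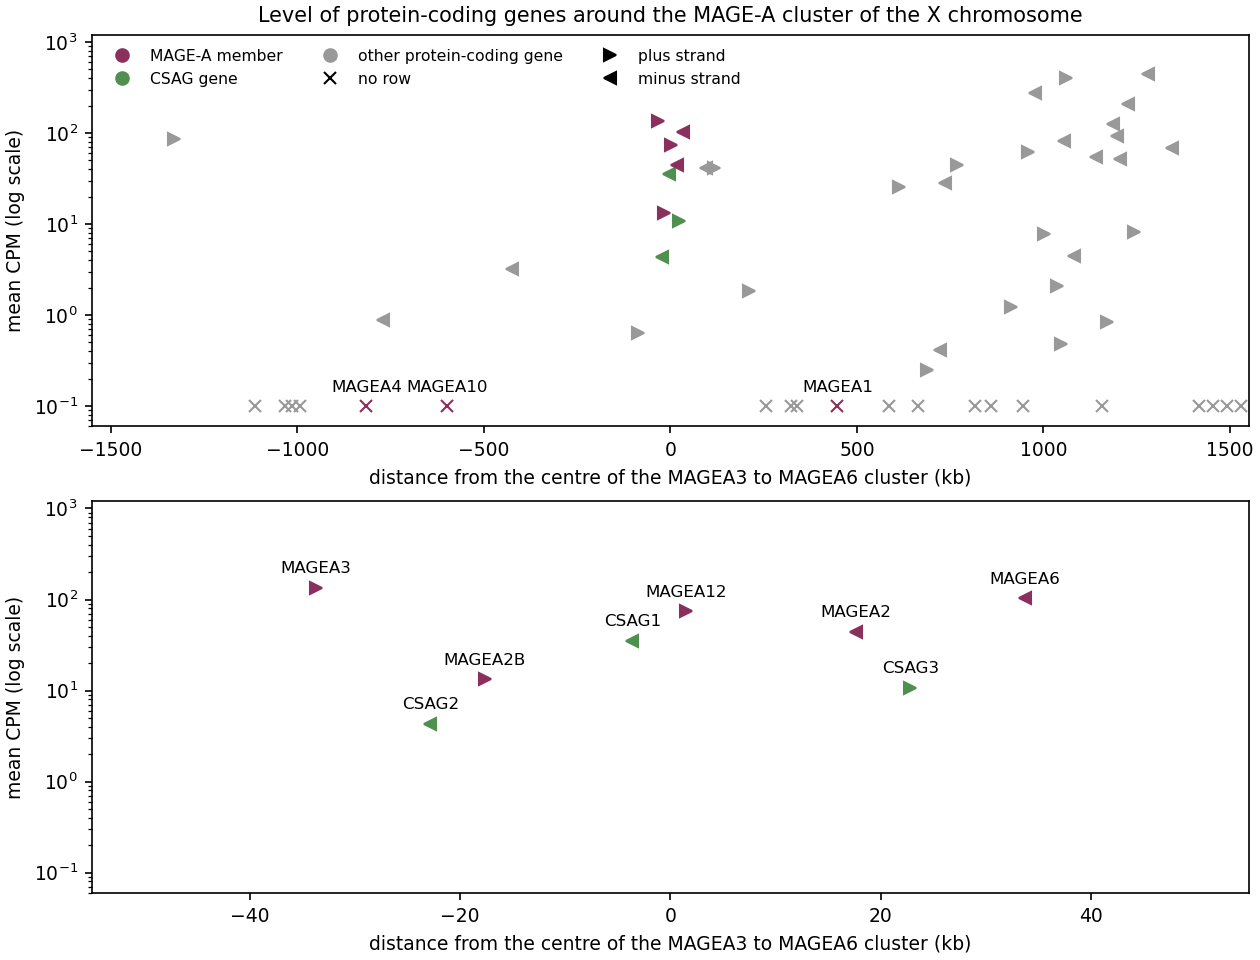
Mean CPM (log scale) of protein-coding genes against distance from the centre of the region that runs from MAGEA3 to MAGEA6, within 1500 kb to either side (top) and within the region (bottom), with arrowheads for strand and crosses at the lower edge for genes without a row under their GENCODE symbol, which have no value and may be listed under an older symbol. MAGEA1, MAGEA4 and MAGEA10 fall among the crosses, and the 5 MAGE-A genes of the region lie between 13.3 and 135 mean CPM.

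The longest stretch common to every window of MAGEA2, MAGEA2B, MAGEA3, MAGEA6 and MAGEA12 has 24 bases. It was drawn from these 5 genes, those that reached a mean of 1 CPM, so its presence in all of them was fixed beforehand. The windows of MAGEA4, MAGEC1 and MAGEC2 had no part in that choice. Differences there follow in part from it, and a link to expression was not tested. The stretch occurs, on either strand, in 11 of the 35116 windows (0.0313%). These belong to 9 genes, namely these 5, CSAG1, CSAG3, MAGEA3-DT and MAGEA6-DT. It is shown with the closest match in the windows of MAGEA4, CG in capitals.
MAGEA2, MAGEA2B, MAGEA3, MAGEA6 and MAGEA12: ggatgtgaCGccactgacttgCGc
MAGEA4, windows 2 to 5: ggatgtgatgccactgacttgCGc
MAGEA4, window 1: ggatgtgacatccctgacttgCGc
Counted from 1 at the 5′ end of the stretch, MAGEA4 differs by C9T in 4 of its windows, which leaves 1 CG of 2. The fifth, window 1, has the 3 differences G10A, C11T and A13C. The closest match in MAGEC2 and MAGEC1 had 10 and 11 differences. These are matches of letters in the reference and do not show a binding site.

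The CSAG genes, a cancer-testis family first described in chondrosarcoma, start beside the MAGE-A genes. The annotated starts of MAGEA2B and CSAG2 are 37 bases apart on opposite strands, as are those of MAGEA2 and CSAG3, and those of MAGEA12 and CSAG1 are 44 bases apart. CSAG1 was at 39.7 CPM at low and 30.7 CPM at high glucose, with a log2 ratio of -0.37 (-0.52 to -0.22), while MAGEA12 beside it was at 0.05. CSAG2 plus CSAG3, which are copies of each other, were at 17.1 CPM at low and 13.1 CPM at high glucose, with a log2 ratio of -0.39 (-0.63 to -0.16). The paired MAGEA2 plus MAGEA2B was at 0.05. The counting intervals of the MAGE-A and CSAG values did not overlap in either case. The difference has no replicate check.

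Of 16 other MAGE-A, MAGE-B and MAGE-C genes, 14 had no row, and MAGEA9B and MAGEA11 had 1 estimated count in each library. Type II MAGE genes, which many tissues express, had a row for 5 of 11. MAGED1 was at 725 CPM at low and 709 CPM at high glucose, and MAGED2 was at 368 and 339 CPM. The list had a median log2 ratio of -0.12, and the interval excluded 0 for 2 genes, both lower in high glucose (16% of all genes), MAGED2 at -0.12 (-0.17 to -0.07) and MAGEF1 at -0.24 (-0.38 to -0.09). NSMCE3, a subunit of the SMC5-SMC6 complex, was at -0.13 (-0.34 to 0.09).

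Of 54 other X-linked cancer-testis antigen genes, 9 had a row and 5 a mean of at least 1 CPM, namely the 3 CSAG genes, CT83 and CTAG2. CT83 had 4.20 CPM with low glucose and 4.12 CPM with high, and CTAG2, which encodes LAGE-1, had 1.07 and 1.45 CPM. The median log2 ratio of the 5 was -0.23, and the interval excluded 0 for CSAG1 and CSAG3, both lower in high glucose, as for 16% of all genes. Of 25 germ cell genes of a further list, 6 had a row. Only SPA17, at 5.96 and 6.58 CPM, and ACRBP, at 1.21 and 1.45 CPM, had a mean of at least 1 CPM. The median ratio of SPA17 and ACRBP was 0.20. The interval excluded 0 for neither. PRAME, a further tumour antigen, was at 0.565 and 0.731 CPM, and CTCFL, the germ cell paralog of CTCF, was at 0.472 and 0.731 CPM.

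Among 15 genes for ligase partners and substrates of MAGE proteins, 12 had a mean of at least 1 CPM, with a median log2 ratio of 0.07. The interval excluded 0 for 6 genes higher and 1 lower in high glucose, where 15.8% of all genes were higher and 16% lower. TRIM28, the partner of MAGE-A3, MAGE-A6 and MAGE-C2, was at 356 CPM at low and 349 CPM at high glucose, with a log2 ratio of -0.03 (-0.08 to 0.02). HUWE1, a ubiquitin ligase, had the highest CPM of the list, 618 and 627 CPM, and USP7, a deubiquitinase, was at 275 and 297 CPM. The lower gene was NSMCE1, a RING ligase, at -0.23 (-0.33 to -0.12). PRKAA1 and PRKAA2, the catalytic subunits of AMPK, had ratios of 0.15 (0.05 to 0.25) and 0.17 (0.05 to 0.28). DCAF12, the substrate receptor that directs MAGE-A3 and MAGE-A6 themselves to degradation, was at 196 and 207 CPM, a ratio of 0.08 (0.02 to 0.15). FBP1, a gluconeogenic enzyme gene, had 0 and 2 estimated counts.

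All 18 listed DNA methylation and histone modifying enzymes had a mean of at least 1 CPM, with a median log2 ratio of 0.03. The interval excluded 0 for 5 higher and 1 lower, beside the same 15.8% and 16% of all genes. DNMT1, the maintenance DNA methyltransferase, was at 167 CPM at low and 166 CPM at high glucose, its partner UHRF1 was at 82.7 and 84.6 CPM, and DNMT3B, a de novo methyltransferase, was at 3.33 and 3.40 CPM. HDAC1, a histone deacetylase, had the highest CPM, 306 and 316 CPM. The histone demethylase KDM1A was at 0.20 (0.13 to 0.26) and the deacetylase HDAC3 at 0.23 (0.10 to 0.37). SETDB1, a histone methyltransferase that TRIM28 recruits, was the lower gene, at -0.25 (-0.41 to -0.10). Of 19 genes for HLA class I antigen presentation, all passed 1 CPM, with a median of -0.13, 3 higher and 7 lower, beside 15.8% and 16% of all genes. B2M, the light chain of class I molecules, was at 1839 and 1903 CPM, a ratio of 0.05 (0.03 to 0.07). The chaperones CALR and PDIA3, which load class I molecules, were at -0.16 (-0.19 to -0.14) and 0.03 (-0.00 to 0.05). NLRC5, the transactivator of class I genes, was at -0.27 (-0.41 to -0.13), and the peptidase ERAP2 at -0.52 (-1.30 to 0.24). Of 23 genes named for the neighbourhood of the MAGE-A region, 15 had a row and 11 passed 1 CPM, with a median of -0.07. The interval lay above 0 for 1 (NSDHL, 0.20) and below it for 1 (CD99L2, -0.20), beside 15.8% and 16% of all genes. HMGB3, VMA21 and MTMR1 had the highest CPM of the list, with ratios of 0.01, -0.01 and 0.02. GABRA3 was at -0.17 (-0.70 to 0.34). The list is not the set of genes within 1500 kb of the region. HMGB3, MTMR1 and CD99L2 lie farther off. It leaves out nearer genes such as IRAK1, at 444 and 451 CPM, and RENBP, at 63.7 and 40.1 CPM.

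The genes nearest to MAGEA3 in log2 CPM over the 2 libraries, outside the group, were NUP58, TMEM167A and ECHS1, at distances of 0.01 on the log2 scale for each. Those nearest to the sum of the group were CALU, MARCKS and S100A10, at 0.02, 0.02 and 0.04. With 2 libraries this likeness holds little beyond a similar level.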

How the data were processed

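Polyadenylated RNA of NCI-H716 cells was sequenced from 1 library at each glucose concentration. The authors trimmed reads with Trim Galore 0.5.0, aligned them to GRCh38 with STAR 2.6.0, estimated gene counts with RSEM 1.3.1, removed genes with very low totals and used edgeR. The deposited table gives the CPM of 19989 genes per library. Its log2, mean and fold columns, the last being the authors' comparison of the libraries, were not used. Genes were matched by symbol, so one listed under an older symbol has no row here. The deposited CPM showed no scaling beyond library totals.

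Estimated counts were recovered from the steps between low CPM, after the lowest value (0.0121, a prior of 0.25 counts) was taken off. Under 10 CPM, 75.4% and 76.0% of values lay within 0.05 of a whole count, so no count model was run. CPM were divided by trimmed mean of M-values (TMM) factors of 0.998 (low) and 1.002 (high) computed from those counts. Intervals (95%) were Wilson for CPM and exact binomial for ratios, from rounded counts, and cover counting error only. Python 3.11.15 with numpy 2.4.6, pandas 2.3.3, scipy 1.17.1 and matplotlib 3.10.9 was used, and the calculations were tested on simulated libraries. Positions, transcripts and coding sequences came from GENCODE v29 on the same assembly, and promoters from RefSeq. Members and lists were chosen with earlier results of these data known. Named were all members, genes whose placement or list they touch, and, of each list, the top 3 by mean CPM and the top 3 by size of ratio above a mean of 1 CPM, of which 2 genes are not reported here. Genes named beyond that, such as DCAF12, UHRF1, CTCFL, IRAK1 and RENBP, were chosen after their values were seen. Alternatives were other scalings, other filters, CPM without the prior, summed copies and added pseudocounts of 1 or 0.01 CPM.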

Additional observations from a re-analysis of the deposited data

How the results depend on the processing

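The alternatives gave 178 values for 43 results. Of these, 166 lay within the counting interval, a list's median interval half-width or, for a count or share, 1.5 times the main value. The other 12 were labelled as moved, 5 of them without such a limit, and 0 called values changed sign. The number of members with a log2 ratio of 1 or more in either direction was 1 in the main setting, 0 with a pseudocount of 1 CPM, 0 with near-identical copies summed and 2 with no filter on low values, where MAGEC1 joins with 3 and 1 counts. The number whose counting interval excludes 0 was 3, and 0 with copies summed. The share of all genes with such a ratio was 0.835%, against 0.238% with a pseudocount of 1 CPM, 0.0963% at a mean of at least 10 CPM and 14.7% with no filter. The pseudocount keeps the same genes and shrinks their ratios, while a filter sets which low genes enter the share. The interval of the sum of all members had a lower limit of -0.0022 in the main setting, 0.0022 with library totals alone and 0.0019 with median-of-ratios size factors. The other 5 values labelled as moved are percentiles of members among genes at 1 CPM or more in each library. They were labelled so because the set of genes ranked was another one, and no limit was applied. MAGEA3 went from 92.1 to 87.6 and MAGEA2B from 56.6 to 32.2. The order of the 7 members was the same per kb as by CPM. Leaving out a library was not run, since each concentration has 1. No paired analysis was possible because the groups hold 1 library each. Depth limits MAGEC1 and MAGEC2 most, with 1 to 15 counts a library.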
